A study of Danio rerio with 4 samples.

Results

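The enveloping layer (EVL) was examined in the shield-stage zebrafish embryo (*Danio rerio*), in 225 cells of a deposited matrix of 14455 cells. They were chosen by measured values: a cell was taken when its unique molecular identifiers (UMIs, each marking 1 captured mRNA) summed to at least 3000 and when *krt92*, *cyt1*, *cldne*, *krt4*, *krt4_1*, *krt8* and *krt8_1* together made up at least 0.5% of them. Of the 11338 cells with at least 3000 UMIs, the other 11113 are called the remaining cells. The levels of the 7 genes, and every difference between EVL cells and remaining cells, are therefore a description of the choice. Such differences were given no test, and a call of any of the 7 genes between genotypes is not used as a result. Tests were made only between embryos of different genotype.

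The EVL is the outermost sheet of the early embryo. It covers the deep cells, from which the germ layers form, and is sealed by tight junctions and braced by keratin filaments, so that water and ions are kept out. During epiboly this sheet is pulled over the yolk together with the yolk syncytial layer, and it later becomes the periderm, a protective covering that is shed after the epidermis below has formed. EVL cells at the dorsal margin also give rise to dorsal forerunner cells, which build the left-right organizer.

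The cells came from whole embryos at shield stage in 4 libraries, 2 from sibling embryos, which the labels also call wild type, and 2 from M*rbm24a* embryos, which lack the maternal supply of Rbm24a, an RNA-binding protein. The methods state 33 embryos for the dissociation. Mothers of M*rbm24a* embryos carried an *rbm24a*-RFP knock-in with Cas9 driven by the oocyte promoter of *zpc*, together with a transgene for 4 guide RNAs against *rbm24a* marked by BFP, and the embryos were sorted as BFP-positive without Rbm24a-RFP. Each library is thus a pool of embryos, for M*rbm24a* from a knockout made in the female germ line, and nothing in the labels says whether the libraries of a genotype came from separate clutches, so the p-values below measure the spread between these libraries only. Where 4 values stand in a row, the siblings come first, in the order of their numbers, and then M*rbm24a* 1 and 2. No count of *rbm24a* fell in EVL cells of any library. Remaining cells held 27 and 18 counts in sibling 1 and sibling 2, and 17 and 19 in M*rbm24a* 1 and M*rbm24a* 2, so that the targeted gene was near its detection floor everywhere and could not check the labels, and counting of 3′ ends does not see small deletions.

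The median share of the 7 genes in EVL cells was 5.61%, 7.42%, 4.01% and 5.103%, and 216 of the 225 cells lay at 2% or more. Only 9 cells lay between 0.5% and 2%, 6 of them from sibling 2 and 3 from M*rbm24a* 2, and 18 cells lay just outside, between 0.25% and 0.5%. The cell nearest inside the threshold had 0.506% and the nearest outside 0.486%. In sibling 2 cells were found in each interval from 0.1% to 20%, whereas sibling 1 had none between 0.5% and 3%. The label was checked with *lye*, a Ly6-family surface protein of the EVL that the rule did not use, and all 225 cells held it, counting values of at least 0.5 after the subtraction of ambient RNA. The share of remaining cells with *lye* was 55.8%, 14.8%, 21.1% and 5.18%, so detection alone did not mark the EVL.

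**Figure D1:**
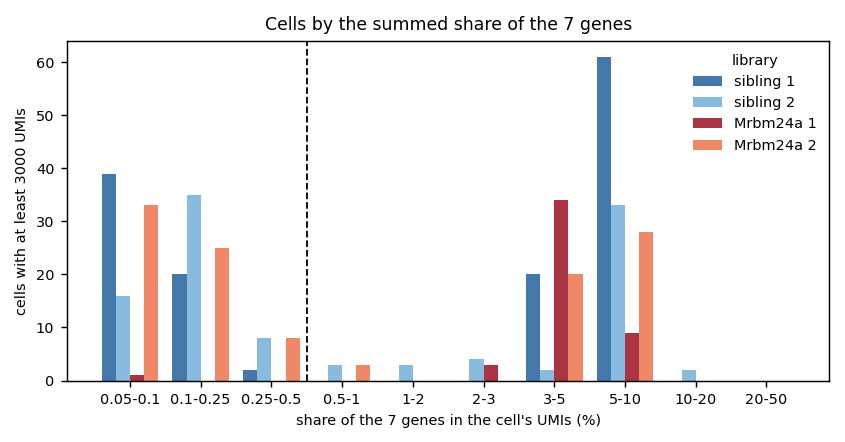
Number of cells with at least 3000 UMIs (y axis) by the summed share of the 7 genes in the cell's UMIs (x axis, %), for each library; the dashed line is the threshold of 0.5% and cells under 0.05% are not drawn. Near the line lie 18 cells between 0.25% and 0.5% and 9 between 0.5% and 2%, 14 of the 27 from sibling 2.

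A few EVL cells stood apart. Of them, 2 barcodes of M*rbm24a* 2 held over 100000 UMIs each, against a median of 20743 for EVL cells of that library, and gave 25.6% of its EVL UMIs. They lay just inside the threshold, at 0.506% and 0.574%. Their summed level of the mesoderm markers was 1048 CPM (the usual count per 1e6 UMIs of the cells summed), against 1642 CPM of the remaining cells of M*rbm24a* 2, whereas the other EVL cells of that library held 306 CPM. For keratins and plakins outside the 7 genes the sums were 2305, 39.6 and 22552 CPM in that order, and for mitosis genes 5932, 7514 and 2772 CPM. The 2 barcodes count as EVL cells by the rule alone, and what they are was not tested. Other barcodes over 100000 UMIs of M*rbm24a* 2 lay outside the threshold, at 0.424%, 0.385%, 0.295%, 0.293% and 0.278%. Of 48 barcodes over 100000 UMIs in the series, 40 were in M*rbm24a* 2. More than 1 UMI of *sox32*, a Sox factor of endoderm and dorsal forerunner cells, was held by 3 EVL cells of sibling 2, 6 of M*rbm24a* 1, 4 of M*rbm24a* 2 and none of sibling 1. Of *foxj1a*, which drives motile cilia, more than 1 UMI was found in 1 chosen cell, of sibling 2, at a share of 0.694%. The same cell held 72.2 UMIs of *sox32*, 7.01 of the Sox gene *sox17*, 37.9 of *foxj1a*, 6.76 of *lye* and 0 of the keratin *krt97*. By these markers it is a dorsal forerunner cell that the rule took in. The 16 barcodes found in more than 1 library included no EVL cell. Summed levels between genotypes that rest on the 2 large barcodes are given with and without them unless said otherwise. The sums of the mesoderm, endoderm and forerunner markers are also given without all 9 cells under 2%.

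EVL cells were deeper than the rest in each library. Their median UMIs were 19269 in both sibling libraries, and 23569.8 and 20743 in the M*rbm24a* libraries, and remaining cells had medians between 13739 and 16129. Median genes per EVL cell were 3995, 3761, 4604 and 4317 in the same order, against 3759.5, 3829, 3705 and 3635 per remaining cell, so that the EVL median was the lower one in sibling 2. Summed over cells, EVL profiles rested on 949934 to 1670220 UMIs per library, and a level of 0 in such a sum allows up to 1.80 to 3.16 CPM, the value of 3 counts.

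The EVL profile differed widely from that of the deep cells. Of 9761 genes with at least 5 CPM in either group of cells, 753 (7.71%) were at least 4-fold higher in EVL cells in each of the 4 libraries on the log2(CPM + 5) scale, and 8 (0.082%) were at least 4-fold lower. These 753 genes made up 39.1%, 45.4%, 29.9% and 28.4% of EVL UMIs, against 0.655% to 0.694% of UMIs in remaining cells. The 7 genes of the rule are among the 753, and the other 746 made up 33.2%, 37.7%, 25.4% and 24.3% of EVL UMIs. Such a share lowers the CPM of every other gene in EVL cells, and the median of all 9761 genes was a log2 ratio of -0.45. Values for other genes are best read against that median. Counts of raised genes in the lists below stand beside the 7.71% of all genes and were not tested. A gene could pass the filter through either group of cells. List genes such as *znf750*, at a mean of 0.137 CPM in remaining cells, passed only through EVL cells, where they are high. Markers of other cell types such as *mespaa*, at a mean of 3.05 CPM in EVL cells, passed only through remaining cells. The list counts were thus in part fixed by the filter. The lists were written with earlier results of these data known.

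**Figure D2:**
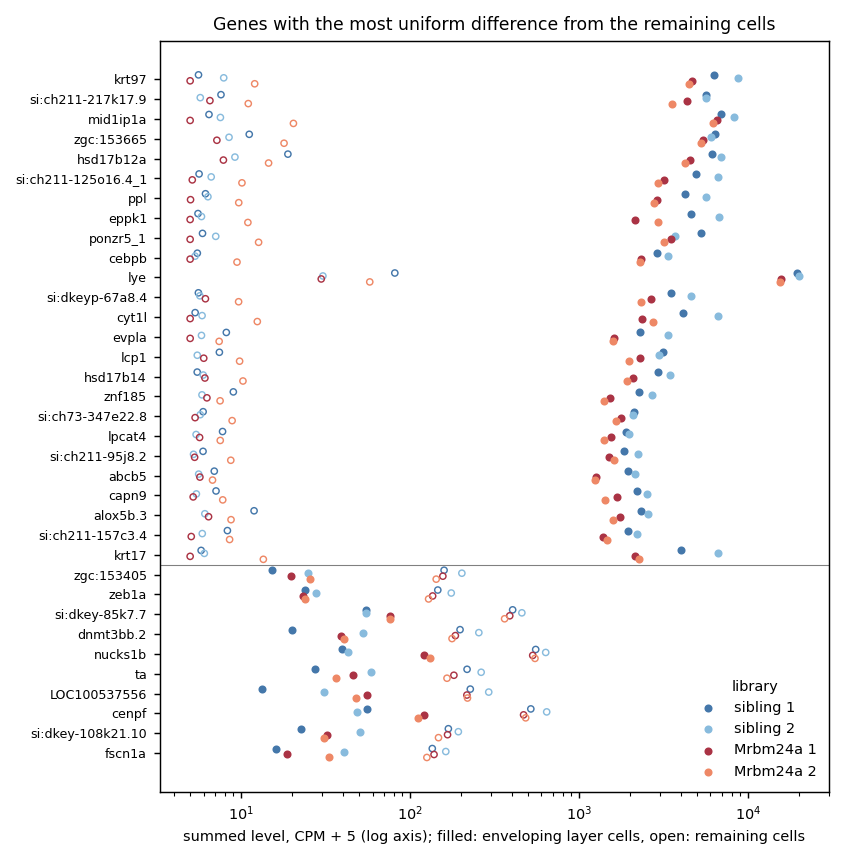
Summed level of each gene as CPM + 5 (x axis, log scale) for EVL cells (filled) and remaining cells (open) of each library. Above the line are the 25 genes outside the 7 with the largest lowest log2 ratio over the 4 libraries, below it the 10 with the strongest difference in the other direction. In the upper block the filled and open points never overlap, as follows from that choice. *krt97* goes from at most 7.05 CPM in remaining cells to at least 4476 CPM in EVL cells.

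Keratins and the proteins that tie them to membranes led the profile. *krt97* reached 6273, 8730, 4678 and 4476 CPM, with no more than 7.05 CPM in remaining cells of any library. *krt17* reached 4026, 6642, 2136 and 2273 CPM in the same order, and *cyt1l* reached 4123, 6640, 2343 and 2749.8 CPM. For these 3 keratins the library sums of EVL and remaining cells did not overlap, as follows from how the genes were picked. Sibling 2 was the highest library. Single cells did overlap: in sibling 2 *krt97* was found in 97.9% of EVL cells and in 4.20% of remaining cells. Outside the 7 genes, 20 of 25 listed keratin and plakin genes matched a symbol, 16 passed the filter on low values and 12 were raised by the 4-fold rule. Among them were the plakins *ppl*, *evpla*, *evplb* and *eppk1* (periplakin, envoplakin and epiplakin), which in mammals link keratin filaments to desmosomes and to the envelope of cornified cells. *ppl* stood at 4231, 5625, 2877 and 2774 CPM and *eppk1* at 4603, 6718, 2145 and 2932 CPM, both with at most 5.98 CPM in remaining cells. In contrast *krt93* and *krt94* stayed below 30 CPM even in EVL cells, and *krt5* reached 66.8 to 143 CPM.

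Between single EVL cells, the share of the 7 genes, by which the cells were chosen, and the summed level of the other keratins and plakins gave Spearman correlations of 0.55, 0.83, 0.71 and 0.39 over 81, 47, 46 and 51 cells. Both measures come from the same library and the same UMIs of a cell, and the range of the share depends on the threshold: without the cells under 2% the value was 0.75 over 41 cells in sibling 2 and 0.27 over 48 cells in M*rbm24a* 2.

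Junction genes followed. Of 41 listed claudin and tight junction genes, 36 matched, 27 passed the filter and 15 were raised, and of 24 desmosome and adherens junction genes 17 matched, 14 passed and 7 were raised. *cldnb*, a barrier claudin, stood at 1183, 1060.5, 1340.4 and 1263 CPM, and at no more than 3.30 CPM in remaining cells. The claudins *cldnf*, *cldnc* and *cldna* were raised too, whereas *cldnd* and *cldng* were present in both groups of cells, at 90.1 to 123 CPM and 67.5 to 94.3 CPM in the EVL and at 24.3 to 42.8 CPM outside it. The scaffold genes *tjp3* and *cgnb* (cingulin) had mean log2 ratios of 5.22 ± 0.27 and 5.91 ± 0.15 (SD, n = 4 libraries), and *oclnb* (occludin) of 5.51 ± 0.36, while the scaffolds *tjp2a* and *tjp2b* had 0.45 ± 0.09 and 0.26 ± 0.08.

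Among the desmosome genes, *dspa* (desmoplakin) stood at 2038, 2759, 1474 and 1424 CPM, and at no more than 9.22 CPM outside the EVL. Its partners *pkp3a* and *pkp1b* (plakophilins), *perp*, and the desmosomal cadherins *dsc2l* and *dsg2.1* were raised as well. *cdh1* (E-cadherin), which deep cells also use, had a mean log2 ratio of 2.88 ± 0.29, and *cdh2* (N-cadherin) of -2.19 ± 0.80. The cadherin *dsg2l* went against its family, with at most 2.95 CPM in EVL cells and 8.30 to 10.5 CPM outside.

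**Figure D3:**
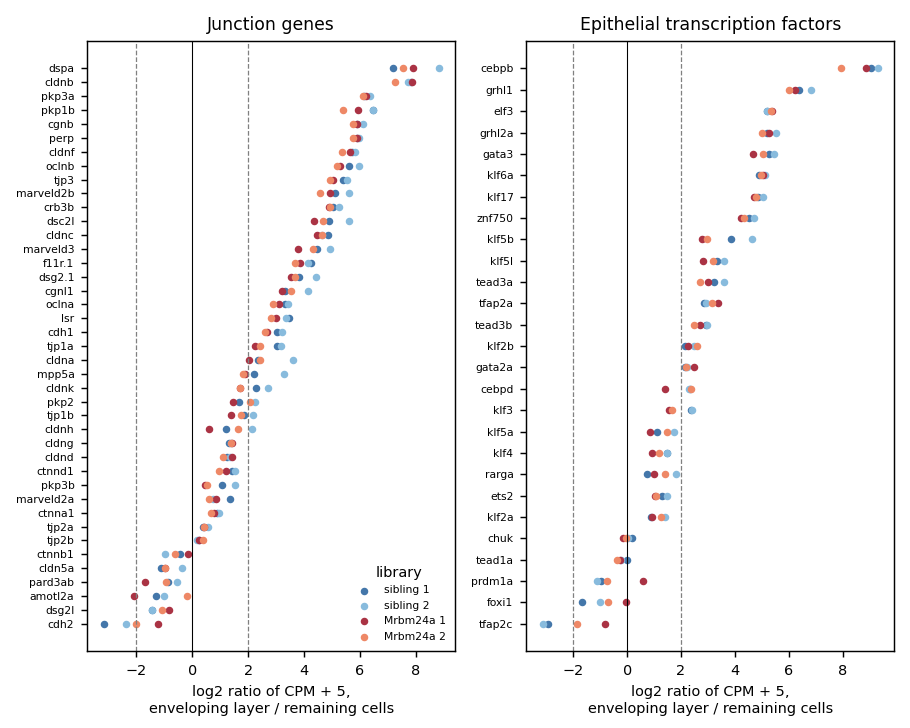
Log2 ratio of CPM + 5 between EVL and remaining cells (x axis) for each library (points), for the junction genes (left) and the listed epithelial transcription factors (right, 1 not drawn) that passed the filter; dashed lines mark 4-fold. *dspa* and *cebpb* lead, with mean log2 ratios of 7.85 and 8.78, and *cdh2* and *tfap2c* are the lowest of each panel, both at -2.19.

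The transcription factors of the EVL were led by *cebpb*. *cebpb*, which encodes C/EBPβ, stood at 2909, 3361, 2320.5 and 2306 CPM, and at no more than 4.47 CPM in remaining cells. Of 40 listed epithelial factors 38 matched, 28 passed the filter and 16 were raised. They included *grhl1* and *grhl2a* (grainyhead-like, regulators of epithelial barriers), *klf17* and *klf6a* (Krüppel-like), *gata3*, *elf3*, *znf750* and *tead3a*. *grhl1* stood at 419, 565, 368 and 338 CPM with at most 0.374 CPM outside the EVL, a mean log2 ratio of 6.35 ± 0.34. *tead3a*, a partner of Yap, was also present outside the EVL, at 25.6 to 28.8 CPM against 208 to 364 CPM in EVL cells, and its mean log2 ratio was 3.14 ± 0.37. *klf4*, *klf5a* and *klf2a* did not pass 12 CPM in EVL cells. *tfap2c* had a mean log2 ratio of -2.19 ± 1.07 whereas its paralog *tfap2a* had 3.06 ± 0.24.

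Of 38 listed surface and secreted products 35 matched, 21 passed the filter and 11 were raised. *lye* stood at 19572, 20030, 15652 and 15524 CPM. In remaining cells it stood at 24.8 to 76.3 CPM, which is more than for the other 24 uniformly raised genes. *agr1*, of the anterior gradient family of secretory cells, stood at 1112 to 1911 CPM, and the calpain protease *capn9*, the annexins *anxa1b* and *anxa1c* and the membrane protease gene *st14a* (matriptase) were raised. The mucin genes *muc5.1* and *muc5.2* did not reach 5 CPM on average in either group of cells.

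The other uniformly raised genes included several of lipid metabolism. *hsd17b12a*, whose mammalian counterpart acts in the elongation of very long chain fatty acids, stood at 6161, 6888, 4527 and 4216 CPM, against 2.87 to 13.9 CPM outside the EVL. *mid1ip1a*, related to a mammalian activator of fatty acid synthesis, reached 6185 to 8287 CPM, and the lysophospholipid acyltransferase gene *lpcat4* and the lipoxygenase gene *alox5b.3* reached 1396 to 1961 and 1588 to 2549 CPM. Also among the 25 were the actin-bundling gene *lcp1* (L-plastin), the LIM-domain gene *znf185*, the dehydrogenase gene *hsd17b14*, the ABC transporter gene *abcb5*, *ponzr5_1*, *zgc:153665* and 6 genes with clone names, among them *si:ch211-217k17.9* at 3531 to 5661 CPM. Each of the 25 genes was found in at least 219 of the 225 EVL cells, and in all 81 of sibling 1.

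Of 21 measured actomyosin and epiboly genes (43 listed, 36 matched) 2 were raised, where 7.71% of all genes were, *myh9a* (non-muscle myosin) with a mean log2 ratio of 3.90 ± 0.25 and *cnn2* (calponin) with 3.81 ± 0.17, and their list median was 0.07. *actb2*, an actin gene, stood at 8784 to 10689.7 CPM in the EVL against 2934 to 3373 CPM outside. Of 12 measured ion, water and acid transport genes (24 listed, 21 matched) 3 were raised, *aqp3a* (a water channel), *slc9a1a* (a sodium-proton exchanger) and *slc9a3r1a*, a scaffold for such exchangers. *aqp3a* stood at 241, 267, 170 and 197 CPM, and under 1 CPM in remaining cells of each library.

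Genes of deep cell types were lower in the EVL. Of the 10 genes with the most uniform difference in this direction, *zeb1a*, whose mammalian counterpart represses epithelial genes, stood at 19.0, 22.7, 18.2 and 18.8 CPM, against 124 to 170 CPM outside. *ta* (Brachyury, a T-box factor of the mesoderm) stood at 22.2 to 53.5 CPM against 161 to 259 CPM, and *dnmt3bb.2*, a DNA methyltransferase gene, at 14.9 to 47.9 against 172 to 251 CPM. The other 7 were *zgc:153405*, *si:dkey-85k7.7*, *nucks1b*, *LOC100537556*, *cenpf*, *si:dkey-108k21.10* and *fscn1a* (fascin). The count of genes at least 4-fold lower was 8, and without barcodes over 100000 UMIs it was 62.

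None of the listed markers of other cell types was raised. All 11 measured mesoderm markers (15 listed, 13 matched) and 6 of 7 ectoderm markers (11 listed, 9 matched) were lower in EVL cells in each library, where 53.3% of all genes tested were. Some markers passed the filter only through remaining cells, so the marker counts were in part fixed by the filter. The endoderm and forerunner list had 4 of 8 lower in each library and the germ cell list 3 of 7, with 1 higher. The summed mesoderm markers were 251, 373, 707 and 497 CPM, against 1642 to 2010 CPM outside. The measured yolk syncytial layer markers were 4 of 19 matched, all 4 lower in each library, and the defining factors *mxtx1* and *mxtx2* did not pass the filter. The germ cell list had 12 of 12 matched and 7 measured. Of these, *ddx4* (vasa), a mRNA supplied by the mother, was higher in EVL cells, at 279, 263, 392 and 317 CPM against 130 to 217 CPM, while *nanos3* stood at 6.55, 7.35, 12.05 and 14.3 CPM. Of 22 measured signalling genes (38 listed, 36 matched) none was raised and 18 were lower in each library, and *fgf8a*, a growth factor of the margin, was among the 2 that were higher, at 79.5, 162, 59.9 and 68.8 CPM against 33.5 to 59.6 CPM.

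EVL cells held less mRNA for cell division than deep cells. Of 23 measured mitosis genes (26 listed, 26 matched) 22 were lower in each library, and of 22 replication genes (25 listed, 24 matched) 21, against 53.3% of all genes, although none reached 4-fold in each library. Their list medians were log2 ratios of -1.27 and -1.58, below the -0.45 of all genes. *mki67*, a marker of cycling cells, stood at 528, 309, 786 and 596 CPM, against 1619 to 1825 CPM outside. *mcm5*, of the replicative helicase, stood at 34.3, 20.2, 93.9 and 89.6 CPM against 327 to 383 CPM. The median EVL cell held 2166, 1371, 3773 and 2868 CPM of the mitosis list in that order, and the median remaining cell 7351 to 7733 CPM. At least the level of the lowest 10% of remaining cells was reached by 8 of 47 EVL cells of sibling 2, by 2 of 51 of M*rbm24a* 2 and by none of the other libraries. The 2 cells of M*rbm24a* 2 and 4 of the 8 of sibling 2 lay under a keratin and claudin share of 2%. The highest share among the 8 was 3.87%, where the median EVL cell of sibling 2 had 7.42%. No EVL cell of sibling 2 lay between 3.87% and 6.29%.

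**Figure D4:**
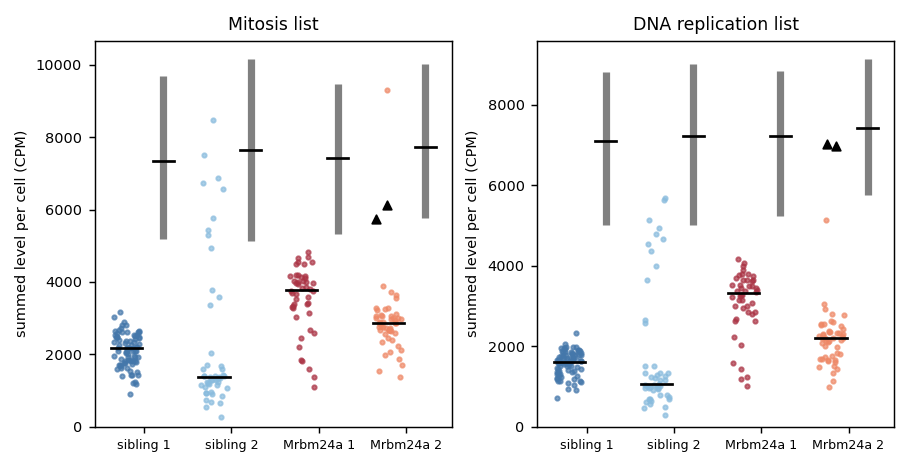
Summed level per cell in CPM (y axis) of the mitosis list (left) and the DNA replication list (right) by library; points are EVL cells, triangles the 2 EVL barcodes over 100000 UMIs, black lines medians, and grey bars the range from the 10th to the 90th percentile of remaining cells. EVL medians, 1371 to 3773 CPM for mitosis, lie below the medians of remaining cells, 7351 to 7733 CPM.

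Raised genes were often neighbours. In the gene order of a RefSeq table of the GRCz12tu assembly, 585 of the 753 matched a protein-coding gene by symbol, and 13.0% of their 1168 next measured neighbours were raised too, where 7.71% of all genes were. With the 7 genes of the rule left out on both sides, the share was 12.3% of 1153 neighbours, against 7.65% of genes. There were 11 runs of 3 or more raised genes in a row, 2 of them with genes of the rule. The longest had 5, *krt92*, *cyt1l*, *cyt1*, *krt17* and *krt91*, of which *krt92* and *cyt1* belong to the 7 genes. Other runs were *krt222*, *krt97* and *krt96*, and the claudins *cldne*, *cldnf* and *cldna*, of which *cldne* belongs to the 7 genes, and 1 run held the desmosomal cadherins *dsc2l* and *dsg2.1*. Where copies in such clusters are near-identical, reads of a 3′ end that fit several copies may not be counted correctly. How alike these copies are was not tested.

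The part of the embryo that the EVL made up was compared first between genotypes. It was 2.44% of cells with at least 3000 UMIs in sibling 1 (81 of 3315, exact Clopper-Pearson 95% interval 1.95 to 3.03%), 1.997% in sibling 2 (47 of 2354, 1.47 to 2.65%), 1.80% in M*rbm24a* 1 (46 of 2550, 1.32 to 2.40%) and 1.64% in M*rbm24a* 2 (51 of 3119, 1.22 to 2.14%). The means were 2.22% ± 0.32 (SD, n = 2) in siblings and 1.72% ± 0.12 (SD, n = 2) in M*rbm24a* embryos, a difference of -0.50 percentage points. Both M*rbm24a* libraries lay below both sibling libraries, with overlapping intervals. The exact two-sided permutation test gave p = 0.33, the smallest that 2 libraries against 2 can give. The order depended on the depth asked for: among cells with at least 10000 UMIs the difference was 0.112 percentage points in the other direction. The intervals cover counting error only, and fewer EVL cells and a different loss of EVL cells during dissociation cannot be told apart.

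Between genotypes, 3 keratins outside the 7 genes passed as lower in EVL cells of M*rbm24a* embryos and 6 replication and mitosis genes as higher when all 225 cells were summed, and no gene passed when 2 of the cells were left out. In edgeR's quasi-likelihood test with Benjamini-Hochberg adjustment, 81 of 7243 genes (1.12%) passed an adjusted p of 0.05, 63 (0.87%) higher and 18 (0.249%) lower in M*rbm24a*, and at an unadjusted p under 0.05 10.8% of genes were higher and 10.3% lower. Without the 2 M*rbm24a* 2 barcodes over 100000 UMIs, 0 of 6707 genes (0%) passed, and 674 had an unadjusted p under 0.05, 5.68% of genes as higher and 4.37% as lower. Without sibling 2 also 0 genes passed, with 812 at an unadjusted p under 0.05, whereas without sibling 1 there were 691, without M*rbm24a* 1 177 and without M*rbm24a* 2 82. DESeq2 called 112 genes on the same sums and limma called 1. The values below are given with this limit.

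None of the 63 higher genes passed without the 2 large barcodes. All 63 were lower in EVL cells than in remaining cells in each library, where 53.3% of all genes tested were. All 63 also had a higher level in the 2 large barcodes than in the other EVL cells of M*rbm24a* 2. The share of all genes with such a difference is not given. The 63 were called with these barcodes in the sum, so the higher level follows in part from how they were picked. Without these barcodes their median log2 fold change was 1.41 in place of 1.92. Of them 58 passed the filter on low counts, and all of the 58 kept their direction, in the same libraries that had picked them. *hspb1*, a small heat shock protein gene, stood at 718, 618, 2639 and 6772 CPM, or 1815 without the large barcodes, against 10363 to 11629 CPM outside the EVL. Its log2 fold change was 2.71 ± 0.39 (SE, adjusted p = 0.0080), and 1.63 without them (adjusted p = 0.11). *cxcr4b*, a chemokine receptor gene, stood at 30.1, 28.3, 170 and 135 CPM (111 without the large barcodes), with a log2 fold change of 2.25 ± 0.30 (adjusted p = 0.0080) that was 2.15 without them (adjusted p = 0.11). For both genes the genotypes did not overlap with or without the 2 barcodes. Both were named because they passed, so this follows in part from that choice, and the share of all genes without overlap is not given. Other higher genes by size of change were *si:zfos-1451h6.1*, *lhfpl2b*, *med28_3*, *gnai1*, *LOC101886905*, *lratb*, *si:ch211-193l2.7*, *tp53inp2*, *zgc:56596*, *dhrs9*, *si:dkey-271j15.3* and *id3*, with log2 fold changes from 6.31 to 2.79, and *id3* and *tp53inp2* alone among them passed 10 CPM in a sibling library.

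Of the replication list, 3 of 22 measured genes passed as higher and none as lower, and 20 lay above a log2 fold change of 0. Of all genes tested, 0.87% passed as higher and 3823 of 7243 lay above 0. The 3 were *slbp*, which binds histone mRNA, *pcna*, the sliding clamp, and *mcm5*. *slbp* stood at 63.7, 57.6, 229 and 322 CPM, or 121 without the large barcodes, and *pcna* at 285, 156, 565 and 764 CPM, or 402. Of the mitosis list 3 of 22 passed as higher, *top2a*, *nusap1* and *ccnb1*, and 21 lay above 0. The list medians were 0.91 and 0.72, against 0.05 for all genes tested, and without the large barcodes they were 0.59 and 0.55 against 0.04, with no gene called. In medians over single cells, the large barcodes included, the replication list stood at 1618, 1061, 3320 and 2213 CPM. Both M*rbm24a* libraries lay above both sibling libraries for either list, and the exact two-sided permutation test gave p = 0.33, the smallest possible.

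The markers of other cell types were summed in the same cells. The summed mesoderm markers of EVL cells were 251 and 373 CPM in siblings and 707 and 497 CPM in M*rbm24a* embryos, or 306 CPM in M*rbm24a* 2 without the large barcodes. Without the 9 cells under a share of 2% they were 251, 205, 707 and 301 CPM, and medians over single cells were 212, 70.2, 577 and 256 CPM. The genotypes overlapped when the large barcodes alone were left out and not in the other 3 versions, and the exact two-sided permutation test of the medians gave p = 0.33, the smallest possible. Of the 13 matched markers, 7 were measured and 1 passed as higher, *chd* (chordin, a BMP antagonist of the organizer), at 84.6, 28.6, 306 and 157 CPM, or 141. The ectoderm markers summed to 348, 294, 389 and 381 CPM, or 265 without the large barcodes. The endoderm and forerunner markers summed to 41.8, 278, 190 and 173 CPM, or 78.1, and overlapped between genotypes. Without the 9 cells the endoderm and forerunner markers summed to 41.8, 31.8, 190 and 75.6 CPM. Their medians over single cells were 38.6, 9.59, 155 and 57.9 CPM. In these versions the genotypes did not overlap, and the exact two-sided permutation test of the medians gave p = 0.33, the smallest possible. Of the yolk syncytial list, *apoc1*, an apolipoprotein gene, passed as higher, at 188, 91.4, 360 and 768 CPM, or 75.3 without the large barcodes, below both siblings, and the list summed to 216, 121, 416 and 818 CPM, or 121 without the large barcodes. The part that such RNA had in the replication and mitosis values was not tested.

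The 18 lower genes included keratins. Of the 18, 15 were higher in EVL cells than in remaining cells in each library, where 27.7% of all genes tested were. By the 4-fold rule 13 were raised, where 7.71% of all genes were, and *cyt1* and *krt4* are among the 13. Of 16 measured keratins and plakins outside the 7 genes, 3 passed, *krt91*, *krt96* and *krt17*, and all 16 lay below a log2 fold change of 0, with a median of -1.21. Of all genes tested, 0.249% passed as lower and 3420 of 7243 lay below 0. Without the large barcodes all 16 still lay below 0, with a median of -0.96 and no gene called. *krt91* stood at 302, 372, 73.3 and 109 CPM, or 127 without the large barcodes, a log2 fold change of -2.004 ± 0.29 (SE, adjusted p = 0.0080) that was -1.87 without them (adjusted p = 0.11). *krt96* stood at 120, 102, 39.2 and 30.8 CPM, or 40.6, with -1.80 ± 0.30 (adjusted p = 0.016). *krt17* stood at 4026, 6642, 2136 and 2273 CPM, or 2838, with -1.41 ± 0.30 (adjusted p = 0.039). The 18 also count *cyt1* and *krt4*, which belong to the 7 genes by which the cells were chosen, so their calls are not used as results. *cyt1* stood at 10448, 16083, 4717 and 5165 CPM, or 6617. In *krt91*, *krt96* and *krt17* the genotypes did not overlap, with or without the large barcodes. These genes were named because they passed, so the lack of overlap follows in part from that choice. The share of all genes without overlap is not given.

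Other EVL lists gave 1 call between them, and most of their genes also lay below a log2 fold change of 0. *lye* stood in M*rbm24a* 2 at 15524 CPM with the large barcodes and at 20095 without them, above both siblings. None of 26 measured junction genes of the claudin list passed, and 21 lay below 0, as did 3420 of 7243 genes (median -0.46, or -0.26 without the large barcodes). Of 26 epithelial factors *klf5b* passed as lower, at 70.7, 122, 29.3 and 34.5 CPM (46.4 without the large barcodes). Of 20 surface products and 12 desmosome and adherens junction genes none passed. Below 0 lay 23 of the 26 factors, 19 of the 20 surface products and 10 of the 12 desmosome and adherens junction genes. Their medians were -0.53, -0.74 and -0.51, or -0.29, -0.52 and -0.33 without the large barcodes. These lists and the keratin list hold many raised genes. With the large barcodes included, the 746 raised genes outside the rule made up 33.2% and 37.7% of EVL UMIs in siblings. In M*rbm24a* embryos they made up 25.4% and 24.3%. The lists are thus not separate results, and their part in this common difference was not tested. The other lower genes were *cyba*, a NADPH oxidase subunit, and *macf1a*, a spectraplakin, both named after their values were seen, *fat2*, an atypical cadherin, *anxa3a*, an annexin, *slc25a23a*, *dcst2*, *LOC103908930*, *LOC101883320*, *si:ch73-6k16.1*, *ca5a*, *birc2_1* and *LOC101883290*. All 18 kept their direction without the large barcodes. They had been picked on the same libraries, so this is not an independent check.

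The largest differences among the lower genes were of low counts. *LOC101883290* held 50 counts in EVL cells of siblings, at 17.2 and 22.0035 CPM, and 0 in M*rbm24a* embryos, at least 15.6-fold lower when 3 counts over the group are taken as the floor. *birc2_1*, named as a further copy of an inhibitor of apoptosis gene, held 36 counts, at 12.17 and 16.8 CPM, and also 0, at least 11.4-fold lower. In remaining cells they stood at 1.45 and 1.51 CPM and at 0.668 and 0.726 CPM in siblings, and at 0 in both M*rbm24a* libraries, so that the absence was not limited to the EVL.

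**Figure D5:**
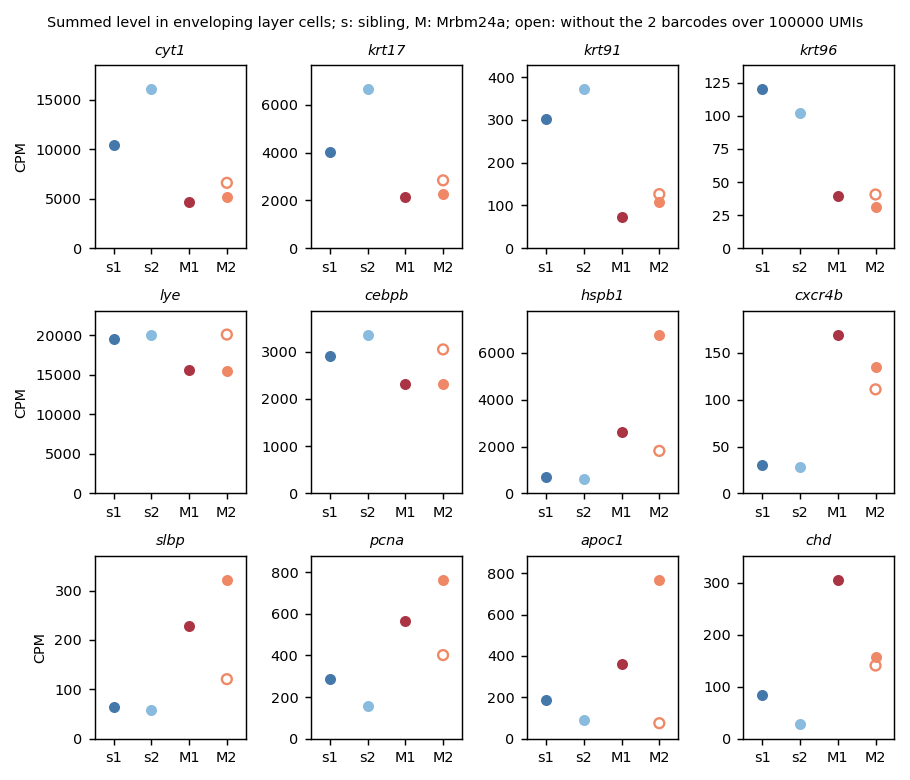
Summed level in EVL cells in CPM (y axes, from 0) of 12 genes in sibling 1 and 2 (s1, s2) and M*rbm24a* 1 and 2 (M1, M2); open circles give M*rbm24a* 2 without its 2 barcodes over 100000 UMIs. *krt17*, *krt91* and *krt96* stay apart between genotypes in both versions, whereas *apoc1* of M*rbm24a* 2 goes from 768 to 75.3 CPM. These keratins were named because they passed the test on the same libraries, so their separation follows in part from that choice. *cyt1* belongs to the genes by which the cells were chosen, and its difference between genotypes is not used as a result.

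The effect of genotype in EVL cells was then set against that in the remaining cells of the same libraries, in one model with a term for the difference. The difference passed an adjusted p of 0.05 for 113 of 17062 genes (0.662%), 102 (0.598%) with a higher and 11 (0.0645%) with a lower fold change in the EVL. Without barcodes over 100000 UMIs it passed for 8 of 16986 (0.0471%). *nanos3*, a germ cell gene, was the gene with the lowest p in both: it stood at 88.6 and 89.6 CPM in remaining cells of siblings and at 4.80 and 5.802 CPM in those of M*rbm24a* embryos, while EVL cells held 6.55 and 7.35 against 12.05 and 14.3 CPM. *esrp1*, *pdxdc1*, *arrdc1a* and *gmds* were high in EVL cells of every library and differed in the remaining cells: *esrp1*, an epithelial splicing regulator, stood at 988, 1071, 910 and 813 CPM in EVL cells and at 6.54, 5.69, 0.809 and 1.45 CPM in remaining cells. *si:zfos-1451h6.1* and *admp*, a BMP-family ligand of the organizer, had higher summed levels in M*rbm24a* EVL cells, the large barcodes included. *admp* stood at 11.3 and 10.9 against 43.2 and 93.8 CPM there and at 266 to 348 CPM outside. Its level in M*rbm24a* 2 without these barcodes is not given. In the genotype test of EVL cells alone no gene passed without them. The eighth gene, *tmsb1_1*, was within 1.84 CPM of 0 in remaining cells of every library.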

How the data were processed

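Cells of 4 libraries were made with the 10x Genomics 3′ v3.1 chemistry. The authors filtered reads with Trimmomatic, counted UMIs per gene with Cell Ranger (build GRCz10 per the labels), ran DecontX against ambient RNA and Scrublet against doublets, and dropped outlying barcodes, so the deposited values are estimated counts with decimals that were not scaled. DecontX may lower genes of one cell type in another, and no further doublet caller was run. Libraries were taken from barcode prefixes. The cells, gene lists and tests were chosen with earlier results of these data known, and families in the closing section after their values were seen.

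Estimated counts were summed per library over EVL and over remaining cells. EVL and remaining cells were compared on log2(CPM + 5), for genes with at least 5 CPM on average in either. The genotypes were tested on sums rounded to whole numbers by the quasi-likelihood test of edgeR 4.0.16 (R 4.3.3) after its default filter on low counts and TMM scaling, without covariates, and the difference between effects with library, cell class and an interaction term. SE is the log2 fold change over the root of F. Shares of cells used scipy 1.17.1. DESeq2 1.42.0, limma 3.58.1 on log2(CPM + 1), RLE factors, no filter, other thresholds, the replicate block and each library left out were alternatives. Totals without scaling and no barcodes over 100000 UMIs were added after the data were seen. The script was tested on simulated data. The genes named are those of the lists, the 25 most uniformly raised (at least 100 CPM) and 10 lowered, and up to 15 called per direction. Some genes are not reported here by name. The paper states that the cells were collected in batches. In the labels the replicate numbers name no batch, so the main fit held no batch term.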

Additional observations from a re-analysis of the deposited data

Results flagged for a closer look

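The effect of genotype differed between EVL cells and remaining cells by the interaction test for 113 genes. This count and the differences that follow include the large barcodes. Of the genes named above, the difference between the log2 fold changes was 4.95 for *nanos3*, 2.57 for *pdxdc1*, 2.14 for *esrp1*, 2.45 for *arrdc1a*, 6.26 for *si:zfos-1451h6.1* and 2.84 for *admp*, each positive, which means a higher fold change in the EVL. In *nanos3*, *pdxdc1*, *esrp1* and *arrdc1a* the remaining cells of both M*rbm24a* libraries lay below those of both sibling libraries, while EVL cells did not pass the genotype test (adjusted p = 0.43, 0.15, 0.39 and 0.46, edgeR). The paper reports that its clustering found no primordial germ cells in M*rbm24a* embryos, and *nanos3* is among its markers of these cells. Which of the remaining cells held *nanos3* was not tested here. Groups of 2 libraries are too small for a test of single outlying libraries.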

How the results depend on the processing

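The direction and the call held for 423 values of single genes over the alternatives, 379 lost their call, 9 gained one and 3 changed sign, all of *tmsb1_1*, whose difference of effects was -0.95 and became 4.48 without barcodes over 100000 UMIs, 6.28 without M*rbm24a* 2 (-2.77 without M*rbm24a* 1) and 1.17 in DESeq2. The difference in the share of EVL cells was -1.06 percentage points at 1000 UMIs and 0.112 at 10000 UMIs, and -0.724 to -0.277 with 1 library left out. The difference in median UMIs (2888) was 7042 at a share of 0.25%, 7164 at 1000 UMIs and -229.9 at 10000 UMIs, and 1474 to 4301 with 1 library left out, where that in the mitosis list was 1100 to 2005 and in the replication list 873 to 1980.3 CPM.

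Raised genes numbered 1167 with a pseudocount of 1 CPM, 427 with 20 CPM, 1328 at 2-fold, and 755 to 815 with 1 library left out. Lowered genes numbered 0 at a share of 0.25%, 67 at 1%, 68 at 2%, 74 with a pseudocount of 1 CPM, 1 with 20 CPM, 820 at 2-fold, and 8 to 83 with 1 library left out. Leaving out barcodes over 100000 UMIs, an alternative chosen after seeing the data, gave 62.

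Genes called between genotypes numbered 6 at a share of 0.25%, 0 at 1% and at 2%, 14 at 1000 UMIs, 224 at 10000 UMIs, 0 among cells up to 2 times the median UMIs, 405 without a filter, 1 with limma, 0 without barcodes over 100000 UMIs, and 0 to 691 with 1 library left out. At unadjusted p under 0.05 the settings with 0 calls held 699, 707, 406 and 674 genes. Library totals alone, also added later, moved the median log2 fold change of all genes from 0.05 to 0.17 and the share of higher calls from 77.8% to 88.4%. The interaction gave 68 calls at 0.25%, 2 at 1% and at 2%, 51 at 1000 UMIs, 8 without barcodes over 100000 UMIs, 57 in DESeq2, 58 with RLE factors, 291 with library totals alone, 392 without a filter, 0 with limma (1800 at unadjusted p under 0.05), and 197 to 496 with 1 library left out.

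With the replicate block 110 genes were called. Deviations of the same-numbered libraries correlated by 0.13, but with 2 pairs the numbers were not shown to pair the libraries. With 1 library in a group, the fit takes its spread from the other group.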

Other observations

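Families chosen after their values were seen add to the EVL profile as values. Of 5 measured NADPH oxidase genes, which make reactive oxygen species, all 5 were raised by the 4-fold rule, where 7.71% of all genes were. In remaining cells all 5 stood at or below 1.37 CPM, so they passed the filter on low values only through EVL cells. The count was thus in part fixed by the filter and by the choice of family, and was not tested. *duox* stood at 187.7, 169.9, 94.99 and 110.2 CPM in sibling 1 and 2 and M*rbm24a* 1 and 2, and the subunit gene *noxo1a* at 320.5, 441.8, 212.7 and 210.2 CPM, each under 1 CPM in remaining cells. Of 25 genes of fatty acid elongation and sphingolipids 10 were raised. Among them was *degs2*, a sphingolipid desaturase gene, at 983 to 770 CPM against at most 2.13 CPM outside, whereas its paralog *degs1* stood at 7.29, 7.20, 33.5 and 67.5 CPM in EVL cells and at 145 to 183 CPM outside. Of 15 unconventional myosins 7 were raised, of 12 syntaxins and VAMPs 5, of 134 solute carriers 18 and of 76 ribosomal proteins none. The filter and the choice of family limit these counts too.

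Barcodes under 3000 UMIs, which the rule leaves out, reached the share of 0.5% in 21 of 219 in sibling 1, 286 of 1213 in sibling 2, 21 of 852 in M*rbm24a* 1 and 19 of 833 in M*rbm24a* 2, or 9.59%, 23.6%, 2.46% and 2.28%. What these barcodes are was not tested.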
